A study of Mus musculus with 13 samples.

Results

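Acta1 and Acta2 encode the skeletal and the smooth muscle α-actin. Genes were taken as members by their symbol in the probe-to-gene table, which gave 2 of 16390 genes on the array, each with 1 probe. Their levels were followed over 13 mouse arrays, 1 array per condition. The cardiac α-actin Actc1 and the cytoplasmic actin Actg1 had no named probe and were not analysed here. The coding sequences of the actins are close to one another, the probe sequences were not used here, and how far each probe also reads the other actins is therefore unknown.

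Actins polymerise into the thin filaments along which myosin pulls. In the mouse heart Acta2 is an early α-actin of the embryonic tube, Acta1 is made in the fetal and newborn heart, and Actc1 is the main α-actin of the adult heart. Acta2 is also made by vascular smooth muscle and by myofibroblasts, the contractile form that fibroblasts take in stiff culture or under TGF-β. Genes of this family are classic targets of serum response factor (SRF), which binds CArG boxes together with the cofactors myocardin (Myocd) or the myocardin-related factors Mrtfa and Mrtfb.

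The promoters of both members are shown because they hold the boxes by which the actins are known to answer SRF, and Myocd is one of the transduced factors. RefSeq (GRCm38.p6) places Acta1 on the minus strand at chr8:123891758-123894775 and Acta2 on the minus strand at chr19:34240336-34255585. The 250 bases before the RefSeq start are printed 5′ to 3′ with matches to the CArG box in capitals, at chr8:123894776-123895025 for Acta1 and at chr19:34255374-34255623 for Acta2. The longest annotated transcript of Acta2 starts inside its window.
Acta1: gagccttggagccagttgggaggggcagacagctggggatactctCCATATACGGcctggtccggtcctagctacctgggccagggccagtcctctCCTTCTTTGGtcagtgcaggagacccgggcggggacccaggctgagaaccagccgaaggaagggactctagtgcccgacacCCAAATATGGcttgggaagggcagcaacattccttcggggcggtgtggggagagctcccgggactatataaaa
Acta2: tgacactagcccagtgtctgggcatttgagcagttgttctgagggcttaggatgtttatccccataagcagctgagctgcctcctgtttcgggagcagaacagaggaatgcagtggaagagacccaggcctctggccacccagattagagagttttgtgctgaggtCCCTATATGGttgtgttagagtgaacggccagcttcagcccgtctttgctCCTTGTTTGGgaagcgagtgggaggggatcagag

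The Acta1 window held 3 matches to the CArG box, of which the one at 73 to 64 bases before the start had only A or T in its 6 inner positions, and the ones at 205 to 196 and at 154 to 145 bases had 1 inner C or G. The Acta2 window held 2 matches, at 84 to 75 and at 34 to 25 bases, each with 1 inner C or G. Of 32851 promoter windows of the same length, 1.47% held a match with only A or T inside and 8.59% a match with at most 1 inner C or G. The TEAD motif MCAT (CATTCC on either strand) lay 46 bases before the start of Acta1 and 146 bases before that of Acta2, and 12.6% of all windows held it. E-boxes (CANNTG) lay at 238 and 221 bases in Acta1 and at 228, 220 and 182 bases in Acta2, a motif found in 66.2% of windows. Neither window held, on either strand, the letters AGATAA that GATA factors bind, which 9.99% of windows held. The letters AGGTGT, bound by T-box factors such as Tbx5 and held by 11.8% of windows, were in neither as well. The MEF2 box, held by 2.92% of windows, was likewise in neither. A match is a description of letters and not of binding.

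The iCMs of these arrays, for induced cardiomyocyte-like cells, come from fibroblasts given transcription factors of the heart by transduction. GMT stands for the factors Gata4, Mef2c and Tbx5, and 6 arrays carried GMT iCMs that had been sorted as positive for GFP under the αMHC promoter, a cardiomyocyte reporter. They were grown in medium with serum (FBS), without it (SF) or with the growth factors FGF2, FGF10 and VEGF (FFV), for 2 or 4 weeks, which gives 1 array for each pair of medium and time. GMTMM adds Mesp1 and Myocd to GMT. Tail-tip fibroblasts (TTFs) given GMTMM were cultured in FFV on 1 array and in FBS on another, and a single array carried iCMs given only Mef2c and Tbx5 (MT), in FFV. For the GMTMM and MT iCMs no time and no sort is stated, and the fibroblast from which GMT and MT iCMs were made is not named. The last 4 arrays carried TTFs, mouse embryonic fibroblasts (MEFs), an embryonic day 12 heart (E12) and a heart from postnatal day 1 (P1). Strain and pooling are not stated.

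By their identifiers the arrays belong to 3 series. One carried the E12 heart and all GMT iCMs, another the P1 heart and MEFs, and the last one MT iCMs, GMTMM iCMs and TTFs. Blank spots averaged 13.1 to 15.4 units of scanner intensity in the first, 14.2 to 15.3 in the second and 39.9 to 41.1 in the last. Between 78.4% (GMTMM iCMs in FBS) and 91.5% (E12 heart) of probes lay above the blanks by 2 SD. Levels below are normalised log2 intensities, and differences are log2 differences. Probes differ in how they bind, so levels are compared across arrays for 1 gene and never between the 2 genes. The labels were checked against 8 cardiomyocyte markers, whose summed normalised signal was 93465 and 115927 in the hearts, 67606 to 101242 in the GMT iCMs, 12356 in the MT iCMs, 911 and 2276 in the GMTMM iCMs, 540 in MEFs and 476 in TTFs. The MT and GMTMM iCMs thus carried far less of these markers than the GMT iCMs. Myl7 alone made up 52.0% to 61.0% of the sums in GMT iCMs. Without the largest marker of each array, the sums were 27146 to 48580 in GMT iCMs and 56572 and 83553 in the hearts. In every pair, 3 of 8 markers were at least 2-fold lower in GMT iCMs than in the E12 heart (3.68% of all genes). Against the P1 heart 6 of 8 were at least 2-fold lower, where 7.03% of all genes were that far apart in either direction.

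Acta1 set the hearts apart from everything else. Its level was 11.15 in the E12 heart and 10.26 in the P1 heart, and the next array, GMT iCMs in FBS at 2 weeks, stood at 7.58. The remaining GMT arrays stood at 7.002 (SF, 2 weeks), 7.05 (FFV, 2 weeks), 7.30 (FBS, 4 weeks), 7.06 (SF, 4 weeks) and 7.09 (FFV, 4 weeks). MT iCMs lay among them at 7.36 and MEFs just under them at 6.94. The lowest arrays were GMTMM iCMs in FBS at 6.77, GMTMM iCMs in FFV at 6.16 and TTFs at 5.86. All 13 spots lay above the blanks by 2 SD, but the spot was only 1.13 times the blank mean in TTFs, 1.41 times in GMTMM iCMs in FFV and 2.18 times in GMTMM iCMs in FBS. The order within this dim end therefore rests on small signals.

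In that order the gap of 2.69 between the P1 heart and the GMT iCMs was far wider than the residual SD of Acta1 in the medium fit, 0.14. Of the other gaps between neighbours, those from the E12 to the P1 heart (0.88), from the highest GMT array to MT iCMs (0.22), from GMT iCMs in FBS to those in FFV at 4 weeks (0.21), from MEFs to GMTMM iCMs in FBS (0.16), from there to GMTMM iCMs in FFV (0.62) and from there to TTFs (0.30) exceeded that SD. The remaining 5 gaps, of 0.01 to 0.06, did not. With 1 array per condition this SD, which is scatter between iCM contexts, was the only measure of spread.

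Acta2 was bright on every array, and its order was another one. The highest level was 15.39 in MT iCMs, whose spot of 43295 was not saturated. GMTMM iCMs in FFV and MEFs followed, both at 14.30, and the E12 heart stood at 13.77. These 2 equal values come from quantile normalisation, which gives spots of the same rank the same value. The spot itself read 21975 in GMTMM iCMs in FFV and 23094 in MEFs.

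Below the E12 heart came GMT iCMs in SF at 2 weeks (13.39), TTFs (13.13), GMT iCMs in FFV at 2 weeks (13.07), GMTMM iCMs in FBS (12.98), GMT iCMs in SF at 4 weeks (12.95) and the P1 heart (12.93). The lowest levels were those of GMT iCMs in FFV at 4 weeks (12.70), in FBS at 4 weeks (12.52) and in FBS at 2 weeks (12.51). Only the gaps from MT to GMTMM iCMs in FFV (1.09), from MEFs to the E12 heart (0.52) and from there to GMT iCMs in SF at 2 weeks (0.38) exceeded the residual SD of Acta2, 0.35. The other 9 gaps did not, so neighbours from the fifth place down do not differ beyond this spread.

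**Figure D1:**
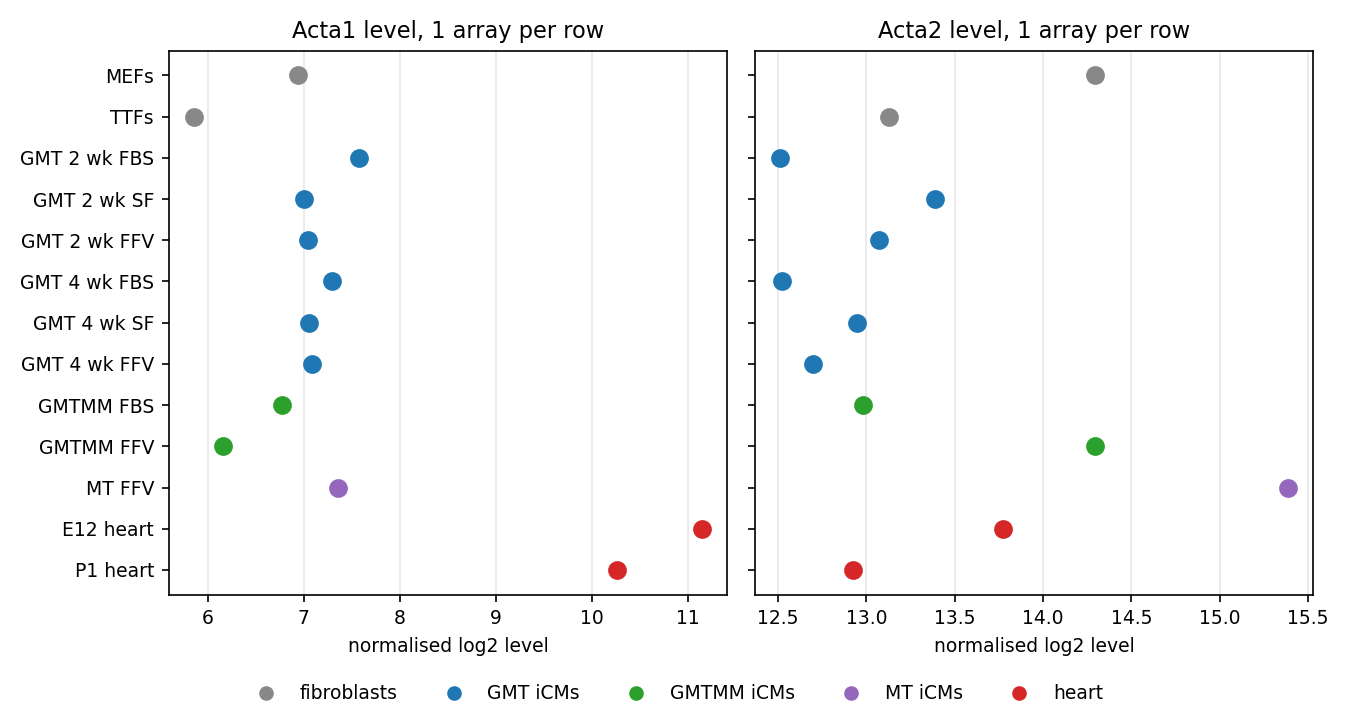
Normalised log2 level of Acta1 (left) and Acta2 (right), on axes of different range, with 1 point per array, no error bars and colours for the kind of sample. The hearts (11.15 and 10.26) stand apart for Acta1, whereas MT iCMs (15.39) lead for Acta2 and the hearts lie within the range of the other arrays.

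Acta1 was lower and Acta2 higher outside serum, although neither difference passed the test over all genes. The FFV and FBS arrays form 3 pairs, from GMT iCMs at each time and from GMTMM iCMs. Acta1 was lower in FFV in 3 of 3 pairs, by -0.53 in GMT iCMs at 2 weeks, -0.21 at 4 weeks and -0.62 in GMTMM iCMs. Acta2 was higher in 3 of 3 pairs, by 0.56, 0.17 and 1.32. Its largest step, in GMTMM iCMs, was the single one of these 6 that exceeded 2-fold, as did 3.27% of genes with signal in that pair.

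The fitted FFV difference was -0.45 ± 0.12 (SE) for Acta1 (95% interval -0.74 to -0.16) and 0.68 ± 0.23 for Acta2 (0.12 to 1.24). Adjusted p-values from limma over 15246 genes were 0.31 and 0.397, with unadjusted values of 0.00857 and 0.0244. At an unadjusted p under 0.05 stood 10.7% of all genes (5.59% higher, 5.13% lower), and after adjustment 0.0394%. Of the members 2 of 2 were under 0.05 before adjustment and 0 of 2 after it. Of all genes, 5.55% had a difference at least as large as that of Acta1 and 2.43% one as large as that of Acta2. The spread behind these values is scatter of the medium response between contexts, not between replicate cultures.

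Macrophage markers differed with the medium as well: the summed signal of all 7 was 784, 2312 and 5363 in the FBS arrays (GMT 2 weeks, GMT 4 weeks, GMTMM) against 567, 540 and 560 in FFV. None of the 7 was higher in FFV in the fit, and 6 were lower at an unadjusted p under 0.05 (5.13% of all genes). The 8 cardiomyocyte markers were all higher in FFV, 6 of them at that threshold (5.59% of all genes). After adjustment 0 markers of either kind passed. The part of either in the actin differences was not tested. In bulk RNA, fewer cells of a type and less RNA per cell cannot be told apart.

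Removing serum without adding factors gave much the same pair of differences. Between SF and FBS in GMT iCMs, Acta1 was lower by -0.58 at 2 weeks and -0.24 at 4 weeks, and Acta2 was higher by 0.88 and 0.42. The fitted differences were -0.45 ± 0.14 for Acta1 (adjusted p 0.297) and 0.81 ± 0.27 for Acta2 (adjusted p 0.312), by limma over all genes. Unadjusted values were 0.0176 and 0.0231, where 13% of genes lay under 0.05 (7.39% higher, 5.63% lower) and 0.0459% passed after adjustment. Fitted on the 6 GMT arrays alone, Acta2 rose in SF by 0.65 ± 0.16 (adjusted p 0.0486) and Acta1 stood at -0.41 ± 0.12 (adjusted p 0.0852), with 11% of 15037 genes passing. In the same 6 arrays FFV against FBS gave -0.37 ± 0.12 for Acta1 (adjusted p 0.152) and 0.36 ± 0.16 for Acta2 (adjusted p 0.237), with 4.13% of genes passing.

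No step between FFV and SF passed the test in either actin. FFV minus SF was -0.00 ± 0.14 for Acta1, with a 95% interval of -0.34 to 0.33, and -0.13 ± 0.27 for Acta2, with one of -0.78 to 0.53. The pairs themselves gave 0.05 at 2 weeks and 0.03 at 4 weeks for Acta1, and -0.32 and -0.25 for Acta2. The fit on the 6 GMT arrays alone, which hold all SF arrays, gave -0.29 ± 0.16 for Acta2 (adjusted p 0.637 by limma). The limma p-values were 0.977 and 0.648 before adjustment, where 5.04% of genes lay under 0.05 (2.66% higher, 2.38% lower) and 0% passed after it. FFV and SF are each set against the same FBS arrays, so the likeness of their differences is not independent.

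**Figure D2:**
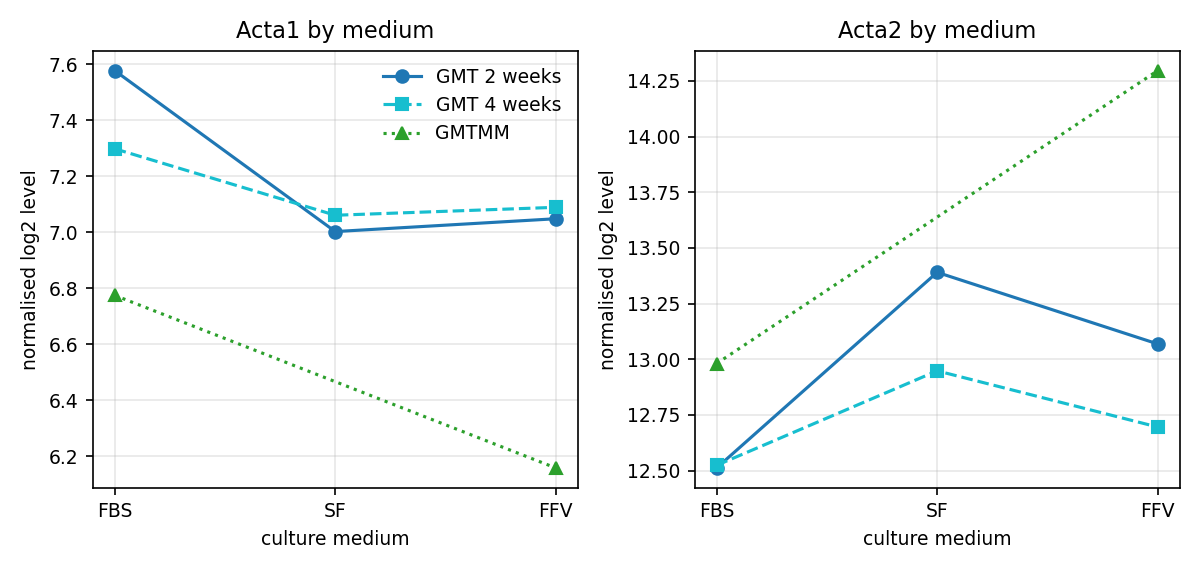
Normalised log2 level of Acta1 (left) and Acta2 (right) by culture medium, on axes of different range; each point is 1 array, and lines join the media of GMT iCMs at 2 weeks, GMT iCMs at 4 weeks and GMTMM iCMs (no SF array). Acta1 is highest in FBS in each context and Acta2 is lowest there, with the steepest Acta2 step, 1.32, in GMTMM iCMs.

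The step of Acta2 in FFV was larger in GMTMM than in GMT iCMs, and a test of that difference was added after the values had been seen. The FFV response of Acta2 was greater in GMTMM iCMs by 0.95 ± 0.26, with an unadjusted limma p of 0.0102 and an adjusted p of 0.075. That of Acta1 differed by -0.25 ± 0.21 (adjusted p 0.475). Of all 15246 genes 9.59% passed in this test. It rests on 1 pair of GMTMM arrays, and its spread comes from the GMT arrays.

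The same test called 3 of 12 measured smooth muscle genes, all with a greater FFV response in GMTMM iCMs, where 5.43% of all genes were called in that direction. They were the smooth muscle γ-actin Actg2 (1.26 ± 0.21, adjusted p 0.0182), the smooth muscle myosin heavy chain Myh11 (0.96 ± 0.11, adjusted p 0.00657) and the thin-filament nucleator leiomodin Lmod1 (0.47 ± 0.09, adjusted p 0.0281). With the local surround subtracted none of the 3 passed, and with a floor on the blank-subtracted signal Actg2 and Myh11 did not. Calls with a greater FFV response were not particular to smooth muscle genes. Pericyte markers (2 of 5), cardiomyocyte markers (2 of 8) and the TGF-β and myofibroblast genes (3 of 15) also held some. The median difference in response was 0.47 for the smooth muscle genes and, in that order, 0.27, -0.29 and 0.08 for these lists (all genes -0.01). Actg2 stood at 9.82 in FFV and 8.70 in FBS in GMTMM iCMs, at 7.32 in TTFs and at 6.22 to 6.75 in the 6 GMT arrays. Its GMT levels were dim, and the processing compresses differences of dim genes. The level of Myocd was 7.38 in GMTMM iCMs in FFV and 6.16 in FBS, against 5.79 to 6.24 in all arrays without GMTMM. Whether its probe reads the transduced copy is not stated. The macrophage signal of the same 2 arrays was 560 in FFV and 5363 in FBS, and the part of either was not tested. Of 12 cytoskeletal targets of MRTF and SRF, the test called 0 with a greater and 3 with a smaller FFV response in GMTMM iCMs, where 4.16% of all genes were called smaller.

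Neither actin passed the test of time in culture. Between 4 and 2 weeks in GMT iCMs, Acta1 differed by -0.28 in FBS, 0.06 in SF and 0.04 in FFV. Acta2 differed by 0.01 in FBS, -0.44 in SF and -0.37 in FFV. The fitted differences were -0.06 ± 0.10 for Acta1 (95% interval -0.30 to 0.18, adjusted p 0.884) and -0.27 ± 0.13 for Acta2 (-0.58 to 0.04, adjusted p 0.601), by limma on 6 arrays. At an unadjusted p under 0.05 lay 8.79% of genes (4.17% higher, 4.62% lower) and 0% passed after adjustment. Among the other actins Actg2 stood at -0.25 ± 0.08 (unadjusted p 0.0197) and the cytoplasmic β-actin Actb at -0.04 ± 0.16.

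GMT iCMs were set beside MEFs and the hearts to place both actins between fibroblast and heart. Acta1 was close to MEFs, with differences of 0.06 to 0.64 over the 6 arrays and a mean of 0.24. It was 15.7-fold below the E12 heart on average (-3.97, range -4.15 to -3.57) and 8.49-fold below the P1 heart (-3.09, range -3.26 to -2.69). The hearts in turn exceeded MEFs by 4.21 at E12 and 3.33 at P1. At least 2-fold apart in all 6 pairs were 4.88% of genes against MEFs (1.96% higher, 2.92% lower), 6.86% against the E12 heart (3.19% higher, 3.68% lower) and 7.03% against the P1 heart. At this probe the GMT iCMs thus stood near MEFs and far below both hearts.

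Acta2 was lower in GMT iCMs than in MEFs in all 6 pairs, by -1.78 to -0.91 and on average 2.71-fold. It was lower than in the E12 heart by 0.38 to 1.26 on the log2 scale, with a mean of -0.92 that was -0.53 with median scaling and -0.56 with the surround subtracted. Against the P1 heart the differences ran from -0.41 to 0.46 around a mean of -0.07, so the GMT arrays lay on both sides of that heart. Between the hearts, P1 minus E12 was -0.88 for Acta1 (-0.35 with the surround subtracted) and -0.85 for Acta2, and 8.89% of genes were at least 2-fold apart. Actb was lower there as well, at -0.72, while Actg2 stood at 0.06. With 1 array per group these differences have no test. The GMT iCMs share an array series with the E12 heart but not with MEFs or the P1 heart, and there series and sample cannot be told apart. The hearts also hold other cells: the 6 endothelial markers summed to 2420 and 4759 in the hearts and to 346 to 464 elsewhere, and their part was not tested.

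MT iCMs carried the highest Acta2 of the series but an unremarkable Acta1. Acta2 was 5.68-fold above GMT iCMs in FFV (2.32 and 2.69 above the 2-week and 4-week arrays), 2.13-fold above GMTMM iCMs in FFV and 2.13-fold above MEFs. Acta1 differed by 0.27 and 0.31 from the GMT arrays in FFV, by 0.42 from MEFs and by 1.20 from GMTMM iCMs in FFV. With the surround subtracted the differences from MEFs were 0.71 for Acta2 and 0.04 for Acta1. At least 2-fold apart were 4.66% of genes against GMT iCMs in FFV (2.75% higher, 1.91% lower), 5.21% against GMTMM iCMs and 9.28% against MEFs (4.78% higher, 4.49% lower). MT and GMTMM iCMs share an array series, but GMT iCMs and MEFs lie in others, so series and sample cannot be told apart there. The labels give no sort for MT iCMs, whereas the GMT iCMs were sorted.

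The TTF and MEF arrays differed in both actins. TTFs minus MEFs was -1.08 for Acta1 and -1.17 for Acta2, with 5.39% of genes at least 2-fold apart. The other measured actins were lower there as well, Actb at -1.26 and Actg2 at -2.83. TTFs and MEFs lie in different array series, as do GMTMM and GMT iCMs, so series and sample cannot be told apart there. The Acta1 spot in TTFs was 1.13 times the blank mean. GMTMM iCMs were above TTFs in Acta1 by 0.30 in FFV and 0.91 in FBS. The sizes depended on the processing, as TTFs minus MEFs ran to -2.23 for Acta1 with the value table and to -2.27 for Acta2 with the surround subtracted. In Acta2 the GMTMM iCMs were above TTFs by 1.17 in FFV and at -0.15 in FBS, so the media fell on opposite sides of the cells of origin. At least 2-fold apart in both pairs were 1.91% of genes, and neither actin was among them. Against GMT iCMs in the same medium, GMTMM iCMs were lower in Acta1 (-0.91 in FFV, -0.66 in FBS) and higher in Acta2 (1.41 and 0.46). With the local surround subtracted the Acta2 value in FBS was -0.99. The spot of Acta2 was 2.12 times its surround in GMTMM iCMs in FBS, the lowest ratio of the 13 arrays.

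The other 2 measured actins took other orders than Acta2. Actb lay between 13.27 (P1 heart) and 15.24 (MT iCMs) and did not pass the medium tests (0.00 ± 0.17 for FFV against FBS, 0.14 ± 0.20 for SF against FBS). Quantile normalisation gave this bright gene the same value on several arrays, such as 14.98 in MEFs and in GMT iCMs in SF. Its spot read 34370 in MEFs and 30310 in GMT iCMs in SF at 2 weeks, so small differences of Actb say little. Actg2 was 12.3-fold lower in GMT iCMs than in MEFs and 10.7-fold lower in MT iCMs than in MEFs, so MT iCMs had the most Acta2 of all arrays with little Actg2 (6.74). In FFV against FBS Actg2 stood at 0.28 ± 0.27.

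Genes of smooth muscle contraction had the sign of Acta2 in some comparisons and not in others. In GMT iCMs against MEFs 10 of 12 measured members were lower on average (median -0.34, all genes 0.01). At least 2-fold lower in every pair were 2 of them, as were 2.92% of all genes: Actg2 and the actin-binding calponin Cnn1 (-2.27). The filament-bundling transgelin Tagln stood at -0.97 and smoothelin (Smtn) at -0.93. In MT iCMs against GMT iCMs in FFV 3 members were at least 2-fold higher in both pairs and 0 lower (median 0.50). They were tropomyosin Tpm2 (2.28), Tagln (2.18) and Smtn (1.10). Of all genes 2.75% were higher and 1.91% lower by that rule. Myh11, the most specific marker of the 12, differed there by -0.01 and stayed at 5.87 to 7.04 on all arrays. GMTMM iCMs exceeded TTFs in 10 of 12 members (median 0.53), Actg2 by 1.94, Cnn1 by 1.11 and Tagln by 0.97, while TTFs were below MEFs in 12 of 12 (median -0.56).

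Across media the counts of these 12 genes depended on which arrays entered. In SF against FBS 12 of 12 were higher in the fit on 8 arrays (median 0.28, all genes 0.01), with 4 higher and 0 lower at an unadjusted p under 0.05 (7.39% of all genes were higher) and 0 after adjustment. Of all genes 54.9% were higher in that fit. SF arrays exist only for GMT iCMs, and their direct pairs gave 9 of 12 higher at 2 weeks (median 0.36) and 7 of 12 at 4 weeks (median 0.06). The fit on the 6 GMT arrays alone gave 9 of 12 higher (median 0.19), 3 of which passed after adjustment by limma, where 5.03% of all genes passed as higher. In the fit on 8 arrays Tpm2 stood at 0.92 ± 0.27, the LIM protein Csrp1 at 0.79 ± 0.32 and the myosin phosphatase inhibitor Ppp1r14a at 0.46 ± 0.12. In FFV against FBS 10 of 12 were higher (median 0.22, all genes -0.00), 3 of them at an unadjusted p under 0.05 (5.59% of all genes): Myh11 (0.54 ± 0.19), Lmod1 (0.39 ± 0.10) and Ppp1r14a (0.29 ± 0.10). The GMT pairs gave 8 of 12 higher at 2 weeks (median 0.10) and 6 of 12 at 4 weeks (median -0.02), and the GMTMM pair gave 10 of 12 (median 0.34). Without GMTMM the fit gave 6 of 12 (median 0.09). At 4 against 2 weeks 2 of 12 had a higher mean, and 3 were lower at an unadjusted p under 0.05, as were 4.62% of all genes. Genes in these lists are not independent replicates. The 5 smooth muscle markers summed to 1974 to 3083 in GMT iCMs, 4027 and 4599 in GMTMM iCMs, 8167 in MT iCMs, 4694 in MEFs, 2235 in TTFs, 2073 in the E12 heart and 968 in the P1 heart. Tagln alone made up 46.6% to 93.8% of these sums. The mean log2 level of the 5 was 8.10 in MT iCMs, 8.09 in MEFs, 8.30 in GMTMM iCMs in FFV and 7.09 to 7.40 in GMT iCMs. All 5 lay above the blanks on every array, and their part in the Acta2 differences was not tested.

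**Figure D3:**
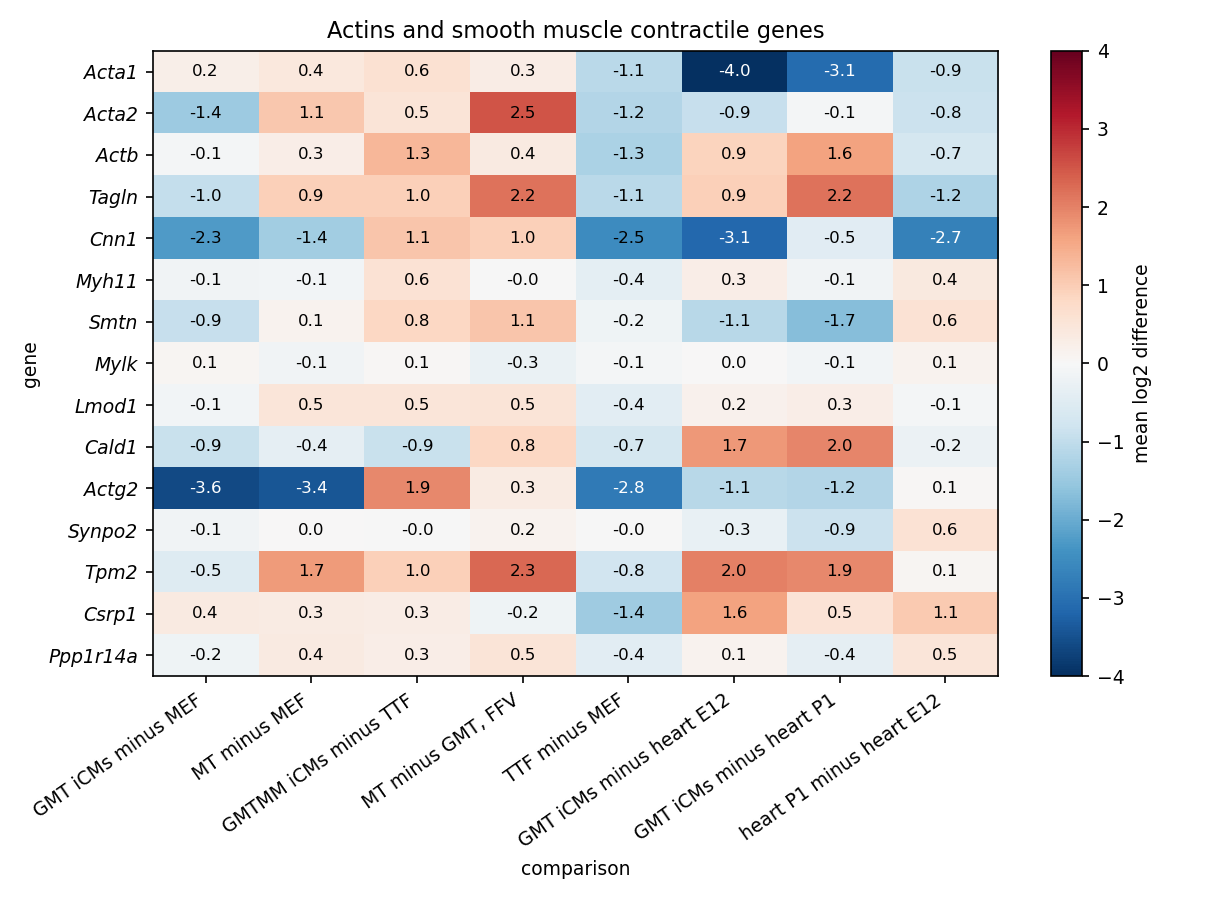
Mean log2 difference (colour and printed value, limited to 4 in the colours) of 3 actins and 12 smooth muscle genes, including Actg2, in 8 comparisons without a test. Acta2 and Tagln have the same sign in the columns without GMT iCMs against a heart, and against the P1 heart Acta2 is near 0 with a sign that turns with median scaling or surround subtraction; Actg2 is far below MEFs in both GMT and MT iCMs, where Acta2 is -1.4 and 1.1.

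Of 11 measured regulators of SRF 9 were higher in FFV than in FBS in the fit on 8 arrays (median 0.32, all genes -0.00 with 49.5% higher). On the 6 GMT arrays alone 6 were higher (median 0.01), and in the GMTMM pair 5 were (median -0.01). In FFV against SF 2 were higher and 0 lower at an unadjusted p under 0.05 (2.66% and 2.38% of all genes). Of 11 measured members 1 was higher at an unadjusted p under 0.05 in SF against FBS (7.39% of all genes), the cofactor Mrtfa (0.73 ± 0.21), and 1 in FFV against FBS (5.59%), the actin-binding SRF activator Abra (0.43 ± 0.15). Srf itself stood at 7.17 in MEFs and 7.25 in TTFs and at 7.79 to 8.60 on the other arrays. In GMT iCMs against MEFs Abra was 3.14 higher. Of 12 MRTF and SRF target genes 11 were higher in FFV than in FBS (median 0.45) and 10 in SF (median 0.41), with 3 and 4 at an unadjusted p under 0.05 (5.59% and 7.39% of all genes) and 0 after adjustment. Of all genes 49.5% were higher in FFV and 54.9% in SF. On the 6 GMT arrays alone 3 of the 12 passed after adjustment by limma in FFV and 5 in SF, where 1.77% and 5.03% of all genes passed as higher. The GMTMM pair gave 6 of 12 higher in FFV (median 0.02). The matricellular growth factor binders Ccn2 (1.14 ± 0.24) and Ccn1 (0.79 ± 0.22) and the adhesion protein vinculin (Vcl, 0.66 ± 0.14) led in FFV in the fit on 8 arrays. In MT iCMs 7 of the 12 were at least 2-fold above MEFs (median 1.13), as were 4.78% of all genes, led by Ccn2 (2.81), Ccn1 (2.53) and the LIM protein Fhl1 (2.43).

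TGF-β and myofibroblast genes, of which Acta2 is a classic marker, had its sign in some comparisons and the opposite sign in others. In MT iCMs against MEFs, where Acta2 was 1.09 higher, 7 of 15 were at least 2-fold lower and 0 at least 2-fold higher (median -0.85), where 4.49% of all genes were lower, among them periostin (Postn, -4.24), the cadherin Cdh11 (-4.02) and the collagens Col3a1 (-3.37) and Col1a1 (-3.18). In GMT iCMs against MEFs, where Acta2 was lower too, 10 of 15 were at least 2-fold lower and 1 at least 2-fold higher in every pair (median -1.94, 2.92% and 1.96% of all genes). In MT iCMs against GMT iCMs in FFV 12 of 15 were higher (median 0.33), in GMTMM iCMs against GMT iCMs in FFV 13 of 15 (median 1.60) and in FFV against FBS 12 of 15 (median 0.17), all with the sign of Acta2. The median of all genes was, in that order, 0.003, -0.001 and -0.001, and 49.5% of all genes were higher in FFV than in FBS. TTFs against MEFs gave a median of -0.43. SF against FBS gave 1 higher and 4 lower of 15 at an unadjusted p under 0.05 (median -0.07, 7.39% and 5.63% of all genes), with Col1a2 at -1.21 ± 0.36 and the ligand Tgfb3 at 1.04 ± 0.16. FFV against SF gave 7 higher and 0 lower (median 0.50, 2.66% and 2.38% of all genes), with Col1a2 at 1.94 ± 0.36 and Col3a1 at 1.30 ± 0.34. None of these passed after adjustment in the fit on 8 arrays. On the 6 GMT arrays alone 1 was higher and 3 were lower in SF after adjustment. The 7 fibroblast markers summed to 1691 and 2120 in SF, 3572 and 5978 in FFV and 3612 and 5452 in FBS in GMT iCMs, and their part in the Acta2 differences was not tested.

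Genes of the cardiac thin filament differed widely among themselves in how far they stood above MEFs. Over MEFs, GMT iCMs had a higher mean level of all 14 measured members (median 2.35), 8 of them at least 2-fold in every pair (1.96% of all genes), led by the troponins Tnnt2 (7.85), Tnnc1 (6.48) and Tnni3 (5.05). Neb (0.00), Nebl (0.09) and Nrap (0.11) stood nearer to MEFs than Acta1 (0.24). They were dim, however, at 5.72 to 5.86 in GMT iCMs and 5.68 to 5.81 in MEFs. Nebl lay above the blanks on 6 of the 13 arrays and Nrap on 9, so their small differences say little. Against the E12 heart 2 were at least 2-fold higher and 4 at least 2-fold lower in every pair (median -0.26, 3.19% and 3.68% of all genes), with the embryonic troponin Tnni1 at -4.75, the nebulin relative Nebl at -4.15 and the actin crosslinker Actn2 at -3.94 near the -3.97 of Acta1. In MT iCMs against GMT iCMs in FFV 8 of 14 were at least 2-fold lower in both pairs and 0 at least 2-fold higher (median -2.08, 1.91% and 2.75% of all genes), while 4 of 14 had a higher mean. In FFV against FBS 6 were higher and 1 lower at an unadjusted p under 0.05 (5.59% and 5.13% of all genes), with Actn2 at 0.92 ± 0.23 and Tnnc1 at 0.91 ± 0.22 while Acta1 stood at -0.45.

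Genes of skeletal muscle did not share one course with Acta1. Of 18 tested members 1 passed in FFV against FBS, the light chain Myl1 (2.78 ± 0.20, adjusted p 0.0418 by limma), where 0.0131% of all genes passed as higher, with Mylpf at 0.55 ± 0.12 and the troponin Tnnt3 at -0.47 ± 0.25. The myosin heavy chain Myh1 stood at 11.75 in MT iCMs and at 5.72 to 7.68 elsewhere, a difference of 6.01 from MEFs where Acta1 differed by 0.42. Tnnt1 and Tnnt3, the slow and fast skeletal troponins T, were 2.23 and 2.22 above MEFs there. Against the E12 heart GMT iCMs were lower in Tnnt1 (-4.91), the calcium buffer Casq1 (-2.55) and the fast troponin Tnni2 (-2.54), and higher in Tnnt3 (1.57). The 6 skeletal muscle markers summed to 4013 in MT iCMs and to 412 to 778 on the other arrays. Myh1 made up 85.9% of the sum in MT iCMs, and without it the others summed to 567. Their part in the Acta1 levels was not tested.

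Genes whose pattern over the 13 arrays was most like each actin were sought among 13737 genes with signal on at least 10 arrays. For Acta1 they were Fgd5, an endothelial exchange factor (Pearson r 0.968), Dusp27 (0.966), the inositol phosphate kinase Itpka (0.965), Mmrn2, an endothelial matrix protein (0.963), and the protease Adamts19 (0.962). Each was 6.60 to 8.58 in the hearts and 5.69 to 6.62 elsewhere, so these correlations rest on the 2 hearts, and without the hearts 0 of the 5 were among the 5 most alike. For Acta2 they were the transporter Abcc6 (0.949), Xkr5 (0.915), the Wnt pathway inhibitor Nkd1 (0.906), Zbtb45 (0.897) and protein kinase D1, Prkd1 (0.884). Abcc6, Xkr5 and Zbtb45 were dim and moved by little, from 6.10 to 6.38, from 5.75 to 5.85 and from 6.09 to 6.34. Nkd1 ranged from 6.64 in GMTMM iCMs in FBS to 9.67 in MT iCMs and Prkd1 from 6.50 to 7.55. Arrays of a group share cells, series and normalisation, and these coefficients describe likeness only.

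The 2 actins had no common course over all arrays, with a Pearson r of -0.03 over 13 arrays as a description. Within the 6 GMT arrays r was -0.78, the opposite responses to medium given above. Among the genes of the fixed lists Nebl (0.956, above the blanks on 6 arrays), the endothelial receptor Tie1 (0.952) and Tnnt1 (0.941) were closest to Acta1. Fibronectin (Fn1, 0.787), the giant filament protein nebulin (Neb, 0.755), the focal adhesion protein Tgfb1i1 (0.754) and Lmod1 (0.754) were closest to Acta2. Neb was dim, at 5.79 to 5.83 on every array but that of MT iCMs (6.05). These coefficients are again descriptions over arrays that share series and depth of signal.

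The directions of the medium differences held under each processing tried, as the plot of fitted differences by setting shows. For FFV against FBS they ran from -0.90 to -0.22 for Acta1 and from 0.36 to 0.94 for Acta2. For SF against FBS they ran from -0.79 to -0.15 and from 0.65 to 1.07. The smallest Acta1 values came with the local surround subtracted and the largest with a floor on the blank-subtracted signal. In GMT iCMs the surround of the Acta1 spot was itself higher in FBS, at 111.6 and 80.3 units against 41.4 to 54.0 in SF and FFV. The spot was 1.54 to 2.09 times that surround. In GMTMM iCMs the surround was 45.7 in FBS and 42.7 in FFV. How much of the Acta1 difference lies in the surround was not tested.

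**Figure D4:**
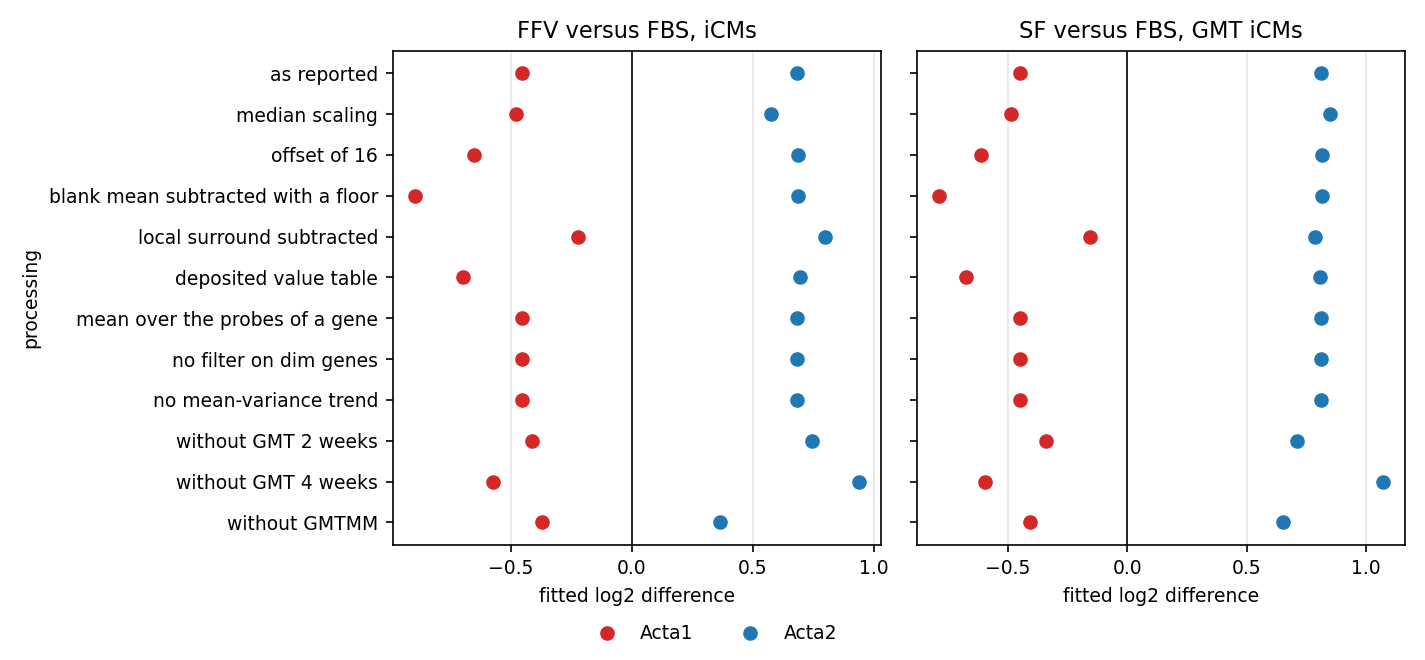
Fitted log2 difference of Acta1 (red) and Acta2 (blue) for FFV against FBS (left) and SF against FBS (right) in the reported fit and under 11 alternatives, 3 of which leave out 1 context; the vertical line marks 0. Every Acta1 point lies left of 0 and every Acta2 point right of it.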

How the data were processed

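Each of the 13 conditions has 1 single-colour Cy5 array, scanned at 635 nm. The files hold, per the file headers, the scanner's median intensity and local surround of 27456 spots, 2736 of them blanks. The authors also deposited a table of values in an unstated intensity unit, each column of which follows the spot median linearly (r of 1) with a median of about 25. Amino allyl aRNA was hybridised, per the labels' protocols.

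Here normexp (offset 50, surround not subtracted) was applied to spot medians, followed by log2 and quantile normalisation. This offset compresses differences of dim genes. Between 0 and 8 spots per array marked as not good were left out. Signal above the blanks means above their mean plus 2 SD. Among 23473 probes, 16631 have 1 gene symbol and 6842 none, and a gene with several probes is represented by the brightest (16390 genes). The lists hold 119 distinct genes, 113 of them measured.

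limma 3.58.1 (R 4.3.3, two-sided, with a trend) fitted context plus medium to the 8 GMT and GMTMM arrays, with 3 residual degrees of freedom, and medium plus time to the 6 GMT arrays, with 2. A tested gene had signal on 2 or more arrays of its fit, and p-values were adjusted over all tested genes (Benjamini-Hochberg, 0.05). P-values measure scatter between contexts, since no label gives separate cultures, and the number of arrays limits precision. All other comparisons are log2 differences without a test. Members, lists and tests were chosen with earlier results of these data known. Named genes are the measured actins, up to 4 members of a list with the largest differences, and the 5 genes most correlated with each actin. Myh11, Smtn, Srf, Myocd, Lmod1 and the list genes closest in pattern, among others, were named after their values were seen.

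The alternatives comprised median scaling, offset 16, a floor of 16 after blank subtraction, surround subtraction, the deposited table (pseudocount 8), probe means, no filter, no trend, and each context or medium left out. The test of the FFV response between GMTMM and GMT was added later. The procedure was tested on simulated data.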

Additional observations from a re-analysis of the deposited data

Results flagged for a closer look

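The FFV response of 3 smooth muscle genes differed between GMTMM and GMT iCMs in a test of that difference, by 1.26 for Actg2, 0.96 for Myh11 and 0.47 for Lmod1 on the log2 scale (adjusted limma p of 0.0182, 0.00657 and 0.0281). In GMTMM iCMs Actg2 was 1.12, Myh11 1.18 and Lmod1 0.70 higher in FFV than in FBS. In GMT iCMs the same steps were 0.04 and -0.32 for Actg2, 0.33 and 0.12 for Myh11 and 0.19 and 0.27 for Lmod1 at 2 and 4 weeks. Acta2, with 0.95, did not pass (adjusted p 0.075). Over 6 alternatives the adjusted p ran from 0.0106 to 0.375 for Actg2, from 0.00496 to 0.151 for Myh11 and from 0.0269 to 0.373 for Lmod1. These were 3 of 12 measured smooth muscle genes, where 5.43% of all genes were called with a greater FFV response. Such calls were not particular to smooth muscle, as 2 of 5 pericyte markers and 2 of 8 cardiomyocyte markers were called too. The test was chosen after the values had been seen and rests on 1 pair of GMTMM arrays.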

How the results depend on the processing

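No paired analysis was possible because the labels carry no replicate numbers and each condition has 1 array; context served as the block instead. For FFV against FBS and SF against FBS the direction of both actins held in 11 of 11 alternatives each, and their adjusted p stayed above 0.05 except for Acta2 in SF against FBS, which passed (0.651, adjusted p 0.0486) without GMTMM. Over those that left out 1 context that value ran from 0.651 to 1.068. Values near 0 changed sign: FFV against SF gave 0.00912 for Acta1 with median scaling and 0.012 for Acta2 with the surround subtracted, and 4 against 2 weeks gave 0.0282 for Acta1 with the value table. Leaving out 1 context gave -0.0736 to 0.0371 for Acta1 and -0.287 to 0.0335 for Acta2 in FFV against SF, and leaving out 1 medium gave -0.119 to 0.0496 for Acta1 at 4 against 2 weeks. The cause of these changes was not tested. The number of all genes called, 6 in FFV against FBS and 7 in SF against FBS, became 11 and 21 with an offset of 16, 0 and 0 with the surround subtracted, 13 and 29 with the value table and 0 and 0 without a trend. With a floor it was 3 for FFV against FBS and 2 for FFV against SF, where 0 were called otherwise. Leaving out 1 context gave 0 to 621 calls and 0 to 1653 calls, the high values without GMTMM. For 4 against 2 weeks leaving out 1 medium gave 0 to 7 calls. Subtracting the surround also turned Acta1 in GMT iCMs against MEFs from 0.24 to -0.135. Acta2 in GMT iCMs against the P1 heart turned to 0.363 with median scaling and 0.315 with the surround subtracted. Acta2 in GMTMM against GMT iCMs in FBS turned from 0.463 to -0.987 with the surround subtracted. Other untested values kept their sign, some while their size moved by over 1.5 times. Acta1 ran from 0.376 to 1.35 in GMTMM iCMs against TTFs, from 0.0355 to 0.664 in MT iCMs against MEFs, from 0.802 to 2.53 in MT against GMTMM iCMs, from -2.09 to -0.593 in GMTMM against GMT iCMs in FFV and from -1.08 to -0.233 in FBS. The spot of Acta2 was 2.12 to 77.9 times its local surround, and that of Acta1 1.13 times the blank mean in TTFs.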
